A study of Mus musculus with 7 samples.

Results

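Messenger RNA levels of 10 genes of neuronal differentiation, Rbfox3, Dcx, Tubb3, Map2, Stmn2, Elavl3, Elavl4, Snap25, Syt1 and Neurod1, were followed across 7 mouse RNA-sequencing libraries. The genes were chosen by name, with earlier results of these data known. All 10 were found among the 24354 gene symbols of the deposited table. The libraries came from embryonic fibroblasts, from neural stem cells of the embryonic cortex, and from fibroblasts infected with viruses that carry reprogramming factors and turned, in medium for neural stem cells, into induced neural stem cells (iNSCs). One question that such libraries address is how far each converted line resembles brain-derived stem cells, and here it was asked of genes that mark the next step, the neuron.

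The mouse embryonic fibroblast (MEF) library was from embryonic day 13.5, strain C57BL/6-Pou5f1 x 129X1/SvJ and genotype Oct4-CreER x Rosa26-loxSTOPlox-EYFP, from embryos whose head, internal organs and spinal cord had been removed. The labels give the same strain, age and genotype for 4 iNSC libraries: pOKSM, pBKSM, and mcBKSM clones 1 and 3. In these names O is read as Oct4 (gene Pou5f1), B as Brn4 (gene Pou3f4), and K, S and M as Klf4, Sox2 and Myc. The prefix p is read as a polycistronic vector, which puts several factors on 1 transcript, and mc as monocistronic vectors with 1 factor each. The DTA iNSC library, of embryonic day 13.5 and genotype Oct4-CreER x Rosa26-loxSTOPlox-DTA, has its strain given as unknown, and its factors are not named in the labels. In that design cells in which the Oct4 gene drives active Cre switch on diphtheria toxin. The control neural stem cell (cNSC) library was from cerebral cortex of embryonic day 13.5, genotype OG2/ROSA26, with OG2/ROSA26 heterozygous female mice entered as the strain. Each library was made from RNA pooled from 2 to 3 biological replicates, so no spread within a line can be seen, and only mcBKSM has 2 libraries.

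Neurons arise from neural stem cells through proneural transcription factors, of which Neurod1 is a late one. New neurons then build axons and dendrites from tubulin and its partner proteins (Tubb3, Map2, Dcx, Stmn2), switch to neuronal RNA processing (Rbfox3, Elavl3, Elavl4) and assemble the machinery of synaptic release (Snap25, Syt1). In non-neuronal cells the repressor REST, with its corepressors, keeps many such genes low.

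Expression is given in FPKM, that is, fragments counted over a transcript divided by its length and scaled by the authors for the size of the library, so levels can be set side by side between genes. Between 10907 and 11429 genes reached 1 FPKM in a library. Depth had to be estimated from the steps between low values. The approximate result was 11500000 fragments in pBKSM to 16900000 in DTA. At that depth 3 fragments on a transcript of 2 kb make 0.0888 to 0.130 FPKM, and this floor covers counting error only. Fibroblast marker genes summed to 4439 FPKM in MEF and to between 8.98 and 81.5 FPKM in the other 6 libraries. Nes, the neural stem cell filament gene, was at 0.103 FPKM in MEF and at 132 to 275 FPKM in the others. Endothelial markers summed to no more than 1.12 FPKM and pluripotency markers to no more than 2.57 FPKM in any library, and microglial markers to 14.8 FPKM in MEF and at most 0.485 elsewhere. In MEF the microglial sum was nearly all Tmem119 (13.8 FPKM), with Csf1r at 0.610, Aif1 at 0.348, Cx3cr1 at 0.0171 and P2ry12 at 0. The factor genes themselves did not all follow the line names, since Pou3f4 was listed at 0 in both mcBKSM clones, at 19.99 FPKM in pBKSM and at 2.26 FPKM in pOKSM. Pou5f1 was at 0.398 and 0.187 FPKM in mcBKSM clones 1 and 3 and at 0.202 FPKM in pOKSM, and it was listed at 0 in the other 4 libraries, pBKSM among them. How far vector transcripts are counted at these genes, and whether labels of lines were mixed, was not tested. The names are therefore used as labels only, and the comparisons of pBKSM and of pOKSM with mcBKSM are between libraries so labelled.

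The number of the 10 genes that reached a given level differed between libraries. In MEF 2 of the 10 reached 1 FPKM, in cNSC 6, in pOKSM 7, in pBKSM 6, in each mcBKSM clone 7, and in DTA 3. At 5 FPKM the numbers were 2 in MEF, cNSC and DTA, 3 in pBKSM, and 5 in pOKSM and in each clone. In MEF 6 of the genes were listed at 0, in pBKSM 2 and in mcBKSM clone 3, 1. Of all 24354 genes, 9066 (cNSC) to 9758 (MEF) were listed at 0 in a library, and 9722 in pBKSM. Between 44.8% and 46.9% of all genes reached 1 FPKM. The share of all genes at 5 FPKM was not computed, so no result is read from the counts at 5 FPKM. For 5 of the 10 genes (Rbfox3, Dcx, Tubb3, Elavl4 and Syt1) pOKSM and both mcBKSM clones were the 3 highest of the 7 libraries. Of the 13042 genes that reached 1 FPKM in any library, 14.9% had that order. The count has no test, and the genes were chosen with earlier results of these data known, so no support is drawn from it. The clones were close over all genes: clone 3 was 2-fold or more above clone 1 for 0.461% of genes and below it for 1.25%.

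**Figure D1:**
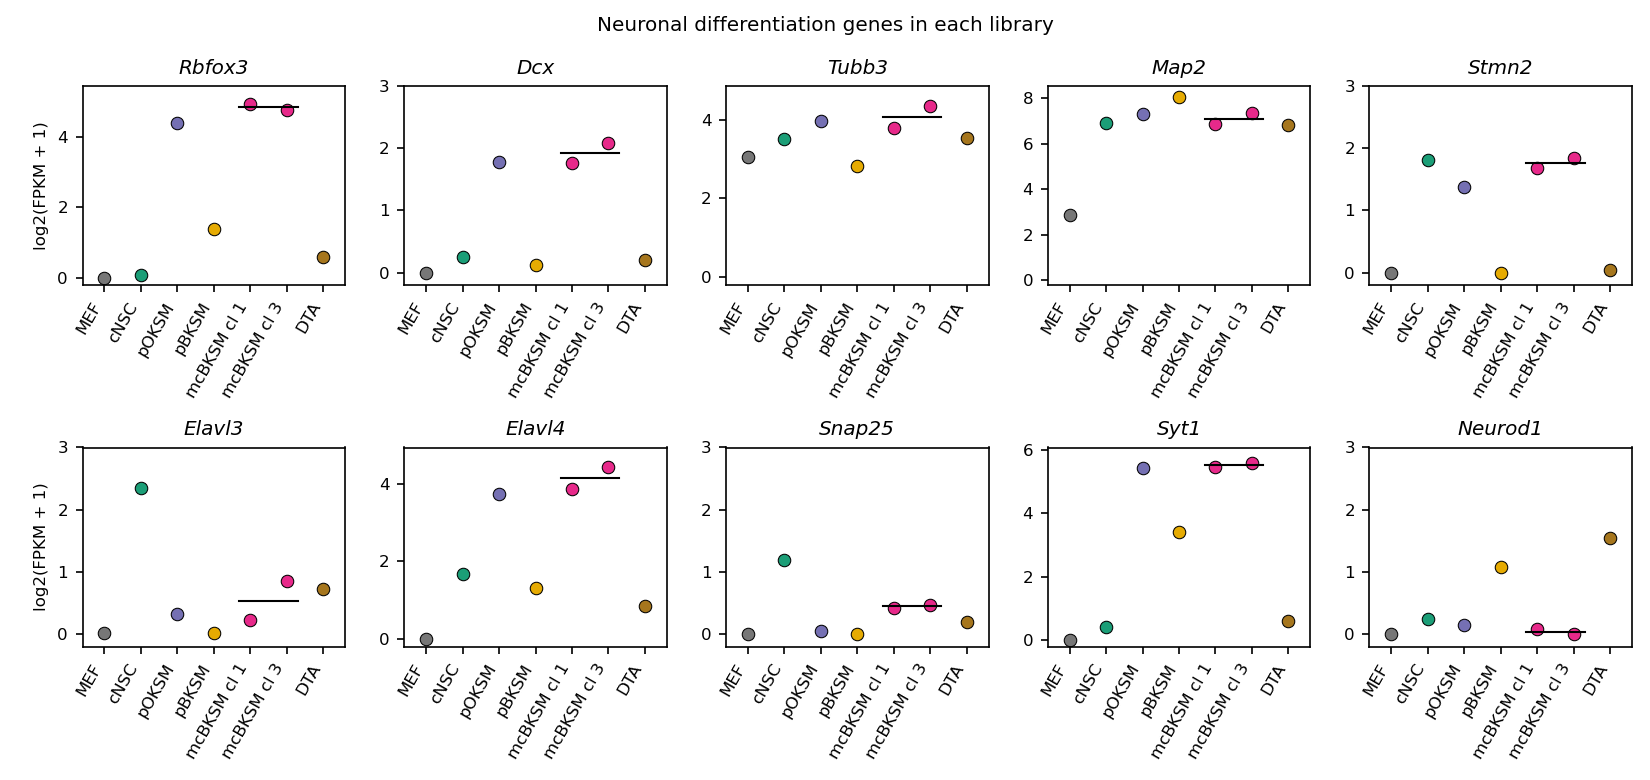
Level of each of the 10 genes in the 7 libraries, 1 panel per gene, as log2(FPKM + 1) on the vertical axis and 1 point per library on the horizontal axis (cl, clone); the line is the mean of the 2 clones. Rbfox3, Dcx, Elavl4 and Syt1 are highest in pOKSM and the mcBKSM clones, Elavl3 and Snap25 in cNSC, Neurod1 in DTA, and Map2 is high in every library but MEF.

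Promoters of these genes ranged from poor to rich in CpG dinucleotides, the site of DNA methylation in mammals. They are shown for a pair of members with few CpG and for the pair that was above 1 FPKM in MEF, chosen after their values were seen. RefSeq promoter windows (GRCm38.p6) were matched for 8 of the 10 genes, with 13 windows in all, and the 250 bases before the transcript start are used, read 5′ to 3′ on the gene's strand. Across 32851 such windows the median number of CpG was 6. Each CpG is in capitals in the next 4 sequences, the first pair of which have few and the second pair many; bases that lie in an annotated exon are left out.
Rbfox3, chr11:118761042-118761291, minus strand: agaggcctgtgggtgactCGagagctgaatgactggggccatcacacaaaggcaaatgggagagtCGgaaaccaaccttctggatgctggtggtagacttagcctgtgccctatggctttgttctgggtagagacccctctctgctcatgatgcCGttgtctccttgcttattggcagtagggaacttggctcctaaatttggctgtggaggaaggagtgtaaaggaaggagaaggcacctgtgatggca
Dcx, chrX:143933312-143933469, minus strand: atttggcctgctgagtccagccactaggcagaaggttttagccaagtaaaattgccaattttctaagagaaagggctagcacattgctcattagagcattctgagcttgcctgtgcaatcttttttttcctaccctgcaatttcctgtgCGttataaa
Tubb3, chr8:123411303-123411423, plus strand: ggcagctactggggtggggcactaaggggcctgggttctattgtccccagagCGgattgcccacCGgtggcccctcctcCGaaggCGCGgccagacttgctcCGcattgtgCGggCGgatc
Map2, chr1:66175079-66175272, plus strand: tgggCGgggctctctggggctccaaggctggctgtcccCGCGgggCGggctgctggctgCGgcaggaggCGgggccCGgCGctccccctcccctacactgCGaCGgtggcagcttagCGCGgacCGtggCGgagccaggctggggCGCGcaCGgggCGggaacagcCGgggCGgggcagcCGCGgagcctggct
Over the whole 250 bases the Rbfox3 and Dcx windows held 3 CpG each, at the 29.0th percentile of all windows. Tubb3 held 21 and Map2 34, at the 83.7th and 96.5th percentiles. The printed stretches hold 3 CpG for Rbfox3, 1 for Dcx, 8 for Tubb3 and 22 for Map2. Both of the low-CpG genes here were near or under the floor in MEF and high in pOKSM and the clones, whereas Tubb3 and Map2 were the only members above 1 FPKM in MEF. Syt1, whose level varied most over the iNSC libraries, lay between these pairs with 5 and 8 CpG in its windows. Neurod1 (22 CpG) and Elavl3 (20 CpG) were also rich in CpG and yet were under the floor in MEF, so CpG content did not sort the genes by their MEF level. The printed Rbfox3 start lies inside the annotated gene, which has several starts, and no file here tells which start was used.

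**Figure D2:**
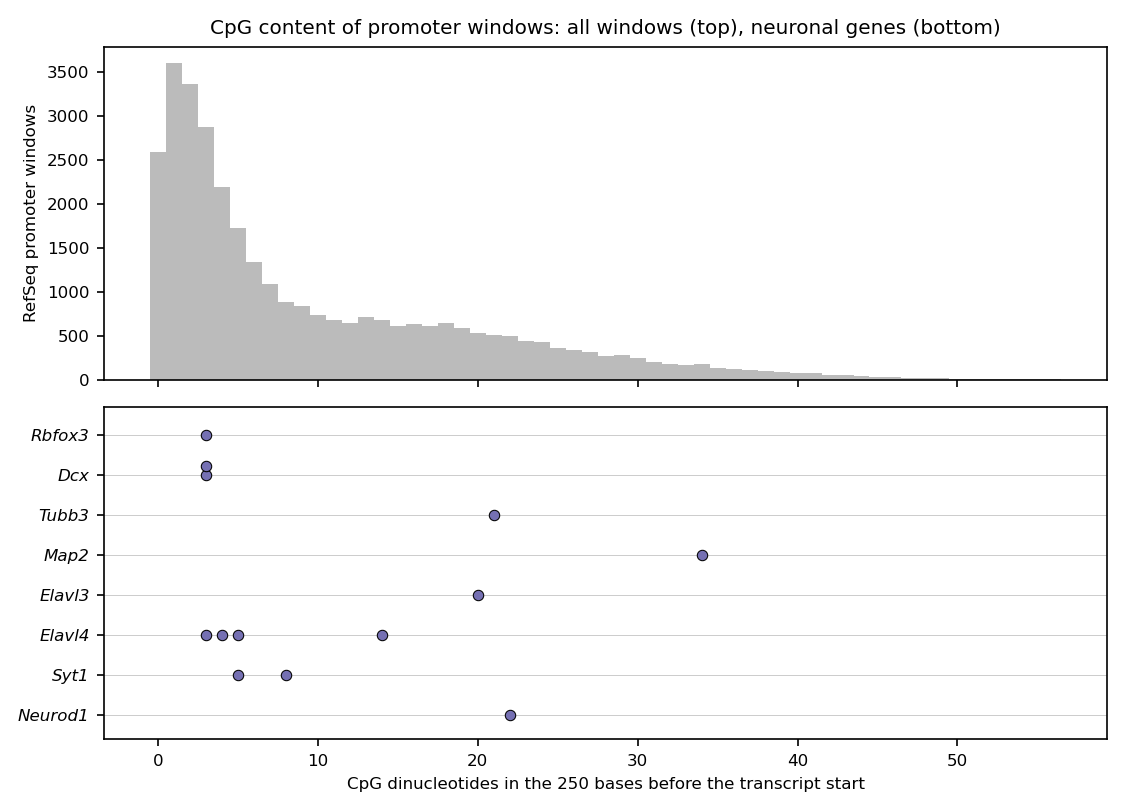
Number of CpG dinucleotides in the 250 bases before a transcript start. Top, the number of windows (vertical axis) among 32851 RefSeq promoter windows; bottom, 1 point per window of each matched gene, from 3 in Rbfox3 and Dcx to 34 in Map2.

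Proneural factors bind E-box motifs. The motif CAGCTG, which is its own reverse complement, was searched for. The second motif, CAGATG, was searched for on both strands, so that the letters CATCTG also count. The first was found in 13.0% of all windows and the second in 14.4%. Among the members the first was also in a window of Elavl3 and of Syt1. A window of Elavl4 held both motifs without overlap, and it is printed with them in capitals.
Elavl4, chr4:110287528-110287777, minus strand: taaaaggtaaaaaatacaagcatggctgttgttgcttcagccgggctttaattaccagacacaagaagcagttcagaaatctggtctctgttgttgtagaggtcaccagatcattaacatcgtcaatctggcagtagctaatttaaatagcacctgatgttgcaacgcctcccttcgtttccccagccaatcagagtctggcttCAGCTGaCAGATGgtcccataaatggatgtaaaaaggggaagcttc
Elavl4 reached 12.4 FPKM in pOKSM and was listed at 0 in MEF. The REST half-site TCAGCACC (GGTGCTGA on the other strand) was in 1.32% of all windows and, among the members, in Tubb3 alone, on the strand opposite to the gene and outside the printed stretch. The other half-site, GGACAG, which on the opposite strand reads as CTGTCC, was in 18.7% of all windows and in a window of Map2 and of Syt1. A match describes the letters of a window and not a bound site.

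Among the members of the cytoskeleton (Tubb3, Map2, Dcx and Stmn2), Map2 was the most abundant in every library but MEF, where Tubb3 was higher. The gene encodes a dendritic microtubule-associated protein, and its level separated MEF from the others. Map2 (chr1:66175273-66442583, mm10, plus strand) was at 6.42 FPKM in MEF, 117 in cNSC, 158 in pOKSM, 259 in pBKSM, 113 and 160.0 in mcBKSM clones 1 and 3, and 112 in DTA. MEF was low and pBKSM was the highest, and each step in the order of the other 5 was no larger than the gap of 0.49 on the log2(FPKM + 1) scale between the clones. An antisense gene, Gm10558, overlaps exons of Map2 on the opposite strand, and no source used here says whether the counting used strand.

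Tubb3, the neuronal beta-tubulin gene (chr8:123411424-123422015, plus strand), varied least in relative terms across all 7 libraries. Its level was 7.33 FPKM in MEF, 10.4 in cNSC, 14.6 in pOKSM, 6.05 in pBKSM, 12.8 and 19.4 in mcBKSM clones 1 and 3, and 10.5 in DTA. Every step in the order of these levels was no larger than the gap of 0.57 on the log2(FPKM + 1) scale between the clones. Against the clones' mean, however, MEF (-1.01) and pBKSM (-1.25) lay lower by more than that gap. Fibroblasts held Tubb3 RNA at a level inside the range of the converted lines, above pBKSM and below the other iNSC libraries.

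Dcx, which encodes doublecortin of migrating immature neurons (chrX:143855842-143933311, minus strand), was low and sharply divided. It was listed at 0 in MEF and was at 0.194 FPKM in cNSC, 2.41 in pOKSM, 0.0879 in pBKSM, 2.40 and 3.26 in mcBKSM clones 1 and 3, and 0.146 in DTA. The libraries pOKSM and both clones stood well above the other 4, which did not differ from one another by more than the gap between the clones.

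Stmn2, which encodes the growth-cone protein SCG10 (chr3:8509360-8561606, plus strand), added cNSC to the high side. It was listed at 0 in MEF and pBKSM and was at 2.4997 FPKM in cNSC, 1.61 in pOKSM, 2.21 and 2.60 in mcBKSM clones 1 and 3, and 0.0337 in DTA, which is under the floor. So Stmn2 separated pBKSM and DTA from the other iNSC libraries, as Dcx did, but did not separate cNSC from them.

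Among the 3 RNA-binding genes Rbfox3 varied most over the iNSC libraries, with an SD of 2.06 on the log2(FPKM + 1) scale. It encodes NeuN, a splicing factor and the standard nuclear marker of mature neurons (chr11:118489762-118911597, minus strand). It was listed at 0 in MEF and was at 0.0692 FPKM in cNSC, 19.9 in pOKSM, 1.62 in pBKSM, 29.7 and 26.0 in mcBKSM clones 1 and 3, and 0.497 in DTA. Its highest iNSC library was 59.7-fold above its lowest. The cortex-derived cells were at or under the floor, so the 3 high libraries exceeded both reference cell types.

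Elavl4, which encodes the mRNA-stabilising protein HuD (chr4:110203722-110351909, minus strand), followed a similar order. It was listed at 0 in MEF and was at 2.19 FPKM in cNSC, 1.48 in pBKSM, 0.812 in DTA, 12.4 in pOKSM, and 13.5 and 20.7 in mcBKSM clones 1 and 3. Its paralogue Elavl3, encoding HuC (chr9:22015005-22052023, minus strand), did the opposite with respect to cNSC. Elavl3 was at 4.11 FPKM in cNSC, 0.0126 in MEF, 0.245 in pOKSM, 0.0177 in pBKSM, 0.1655 and 0.805 in mcBKSM clones 1 and 3, and 0.661 in DTA. No iNSC library reached 1 FPKM of Elavl3, and the clones differed from each other by 0.63 on the log2(FPKM + 1) scale. An annotated gene, Gm49318, shares exon sequence with Elavl3 on the same strand.

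The pair of synaptic genes also parted. Syt1, the calcium sensor of synaptic vesicle fusion (chr10:108497650-109010982, minus strand), was at 0.0134 FPKM in MEF, 0.321 in cNSC, 41.5 in pOKSM, 9.55 in pBKSM, 43.0 and 46.4 in mcBKSM clones 1 and 3, and 0.511 in DTA. Its SD over the 5 iNSC libraries was the largest of the 10 genes, 2.15 on the log2(FPKM + 1) scale, with the highest library 91.0-fold above the lowest. Snap25, a membrane component of the same fusion machinery (chr2:136713453-136782428, plus strand), was at 1.28 FPKM in cNSC, 0.0408 in pOKSM, 0.344 and 0.379 in mcBKSM clones 1 and 3, 0.150 in DTA, and listed at 0 in MEF and pBKSM. All other libraries held less Snap25 than cNSC, those with the most Syt1 included. Among the iNSC libraries the 2 clones held the most of both genes.

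Neurod1, the only transcription factor of the 10 (chr2:79452521-79456751, minus strand), had yet another order. It was at 1.93 FPKM in DTA, 1.11 in pBKSM, 0.184 in cNSC, 0.103 in pOKSM and 0.0577 in mcBKSM clone 1, and was listed at 0 in clone 3 and MEF. The 2 libraries with the most Neurod1 were those with the least Rbfox3, Elavl4 and Syt1 among the iNSC libraries. Cerkl overlaps an exon of Neurod1 on the same strand, and it reached no more than 0.0735 FPKM.

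Across the 7 libraries Rbfox3, Dcx, Elavl4 and Syt1 went together, with a Pearson r of log2(FPKM + 1) of 0.97 for Rbfox3 with Dcx, 0.97 for Rbfox3 with Syt1 and 0.95 for Rbfox3 with Elavl4. Elavl3 and Snap25 went together at 0.93. These are descriptions over 7 points, of which 2 are clones of 1 line. Among 10246 genes that reached 5 FPKM, those most like Rbfox3 were Myc (0.997), Atg16l1 (0.996) and Tceal3 (0.995). Myc is a factor of the vectors, and it was at 339, 450 and 485 FPKM in pOKSM and clones 1 and 3 and at 42.5 to 78.9 FPKM in the other 4 libraries. Mlf1, Epc2 and Zcchc8 were most like Syt1, at 0.999, 0.993 and 0.992. Those most like Elavl4 were Actr6, Polr3e and Agbl5 (0.995, 0.995 and 0.993), those most like Map2 were Ralgps2, Tm7sf2 and Chd3os (0.995, 0.994 and 0.993), and those most like Tubb3 were Rpusd2, Zkscan1 and Wapal (0.989, 0.989 and 0.983). In bulk RNA such levels cannot tell fewer cells of a type from less RNA per cell.

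Set against fibroblasts, the 5 iNSC libraries held more Map2 RNA, and the other 9 genes did not pass the test. The Map2 difference was 4.37 ± 0.47 (SE, n = 5 against 1) on the log2(FPKM + 1) scale, with an adjusted p of 0.00304 from limma. This made 1 of 10 genes called, higher, where 6.77% of the 13042 genes tested were called higher and 9.55% lower, or 16.3% in all. The differences of Syt1 (4.07 ± 2.00, adjusted p = 0.226), Rbfox3 (3.21 ± 1.92, adjusted p = 0.306) and Elavl4 (2.84 ± 1.52, adjusted p = 0.261) were within the spread between iNSC libraries. All 10 fitted differences were above 0, with a median of 1.09 against 0.03 for all genes tested. A gene listed at 0 in MEF, as 6 of the 10 were, cannot differ downwards, and Elavl3 and Syt1 were near 0 there. No result is therefore read from this direction or median. Without DTA, Syt1 passed as well (4.94, adjusted p = 0.0319), which makes 2 of 10 genes called where 24.7% of all genes tested were called in that fit. Of 9 tested fibroblast markers 7 were lower in the iNSC libraries and none higher, and their part in the Map2 result was not tested.

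Wider lists of neuronal genes are given by the calls of their single genes, to be read against the 6.77% higher and 9.55% lower among all genes, with no test of a list. Of 27 tested genes of the neuronal cytoskeleton and growth cone, 5 were higher and none lower, with a median of 0.91. They included Tubb2b, a tubulin gene of young neurons and progenitors (5.17), Dpysl5, a growth-cone protein gene (4.54), Kif21b, a kinesin gene (3.57), and Stmn1, the stathmin gene (1.77). Dpysl5 (0.0882 FPKM) and Kif21b (0.0273 FPKM) were near 0 in MEF. Of 19 genes of synaptic vesicle release 3 were higher, Amph (4.04), Syn2 (3.297) and Snap91 (1.71), which serve endocytosis or vesicle clustering. These 3 were listed at 0 in MEF and could not be lower, so no support is drawn from their direction. Of 13 neuronal RNA-binding genes none was higher and 3 were lower, namely Celf4 (-2.82), Cpeb1 (-1.14) and Mbnl2 (-1.01). Celf4 and Cpeb1 reached 1 FPKM in MEF alone and were tested only for that reason, which fixes the direction of their differences. None of 14 tested proneural and neuronal transcription factors passed. Of the 16 genes of REST and its corepressors 2 were higher (Phf21a, 1.10, and Hdac2, 0.97) and 2 lower (Sin3b, -0.87, and Ehmt2, -0.74). The number higher in that group was 0 without pOKSM or without either mcBKSM clone (8.81% to 11.5% of all genes called in these fits), and 5 without DTA or with quantile normalization; the number lower was 1 without pOKSM or without clone 3. Without DTA 9 cytoskeletal genes were higher and 2 lower, and 3 transcription factors were higher, while the share of all genes called rose to 24.7%. Among 27 tested paralogues of the members 5 were higher and none lower, with Tubb2b, Syt7 (2.62), Stmn1 and Dclk2 (1.52) the 4 largest. Without pOKSM or without pBKSM, 3 paralogues were higher. Syt7 was near 0 in MEF (0.0198 FPKM). Rest itself was at 14.2 FPKM in MEF, 8.44 in cNSC, 7.49 in pOKSM, 5.12 in pBKSM, 9.24 and 7.60 in mcBKSM clones 1 and 3, and 9.86 in DTA.

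Set against cortical neural stem cells, none of the 10 genes passed, where 1.17% of all genes tested were called, 0.207% higher and 0.958% lower. By limma 2 members had an unadjusted p under 0.05, both lower in the iNSC libraries: Elavl3 (-1.92 ± 0.34, adjusted p = 0.0929) and Snap25 (-0.96 ± 0.22, adjusted p = 0.157; SE, n = 5 against 1). Both genes reached 1 FPKM in cNSC alone and were tested only for that reason. This fixes every iNSC library below cNSC, and no support is drawn from that direction. Without DTA, Elavl3 passed (-1.998, adjusted p = 0.0494), where 6.82% of all genes tested were called. In the list of synaptic vesicle release 2 of 19 genes were lower, Syt4 (-1.84) and Cplx1 (-1.64), both regulators of vesicle fusion, and the list's median was -0.71 against 0.00 for all genes. Cplx1 was at 2.596 FPKM in cNSC and at 0.0852 to 0.256 FPKM in the iNSC libraries. Syt4 and Cplx1 also reached 1 FPKM in cNSC alone, which fixes the direction of their differences. In the cytoskeletal list Stmn1 passed, higher by 1.41, but not without pOKSM or without either mcBKSM clone, nor with quantile normalization. Without pOKSM 1 synaptic gene was lower in place of 2. Of the paralogues Stmn1 was higher and Syt4 lower, and in the other 3 lists no gene passed. None of 10 astrocyte markers was called, although they summed to 1026 FPKM in cNSC and to between 250.2 and 1100 FPKM in the iNSC libraries; their part in the Elavl3 and Snap25 values was not tested.

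A direct pairing of the reference libraries, with 1 library each and no test, is given by its values. Of the pair of members above 1 FPKM in MEF, Map2 was higher in cNSC by 3.99 on the log2(FPKM + 1) scale and Tubb3 by 0.45. Among all genes that reached 1 FPKM in either library 16.3% were 2-fold or more higher in cNSC and 15.5% lower. Stmn2, Elavl3, Elavl4 and Snap25 reached 1 FPKM in cNSC alone and were at or near 0 in MEF, which fixes a difference of about 2-fold or more on this scale, so no count is read from them. Rbfox3, Dcx, Syt1 and Neurod1 were below 1 FPKM in both.

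The polycistronic pBKSM line held less Rbfox3, Syt1 and Stmn2 RNA and more Neurod1 RNA than the mcBKSM clones. Rbfox3 differed by -3.46 ± 0.16 (SE, n = 1 against 2, log2 scale, adjusted p = 0.0400 from limma), Syt1 by -2.11 ± 0.15 (adjusted p = 0.0496) and Stmn2 by -1.76 ± 0.11 (adjusted p = 0.0464). The Neurod1 difference was 1.04 ± 0.06 (adjusted p = 0.0437). Neurod1 was at or under the floor in both clones, so its small SE comes from 2 values near 0, and it reached 1 FPKM only in pBKSM and DTA. Stmn2 was listed at 0 in pBKSM. These made 3 members lower and 1 higher of 10, where 2.08% of 13042 genes were lower and 3.74% higher, or 5.82% in all. The median over the members was -1.51, against 0.00 for all genes tested. Stmn2 and Snap25, both listed at 0 in pBKSM, could not be higher there, and Snap25 was tested only because it reached 1 FPKM in cNSC. The members were also chosen with earlier results of these data known. No result is therefore read from this count or median. Elavl4 (-2.84 ± 0.35, adjusted p = 0.0710), Dcx (-1.81 ± 0.19, adjusted p = 0.0644), Snap25 (-0.45 ± 0.04, adjusted p = 0.0535), Tubb3 (-1.25 ± 0.35, adjusted p = 0.144), Map2 (0.94 ± 0.29, adjusted p = 0.163) and Elavl3 (-0.51 ± 0.36, adjusted p = 0.399) did not pass.

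The spread in that comparison rests on the difference between the 2 clones, which leaves 1 degree of freedom. No gene had an adjusted p below 0.0367. The 4 calls therefore sit near the threshold. No member was called (0 of 10) when genes of low level were kept (Rbfox3 adjusted p = 0.0626) or when limma was run without its mean-variance trend (Rbfox3 adjusted p = 0.0595), and in the latter no gene at all was called. With quantile normalization 2 were called, Rbfox3 and Neurod1. With either clone left out, Rbfox3 differed by -3.36 or -3.55, with no residual degree of freedom and so no test.

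**Figure D3:**
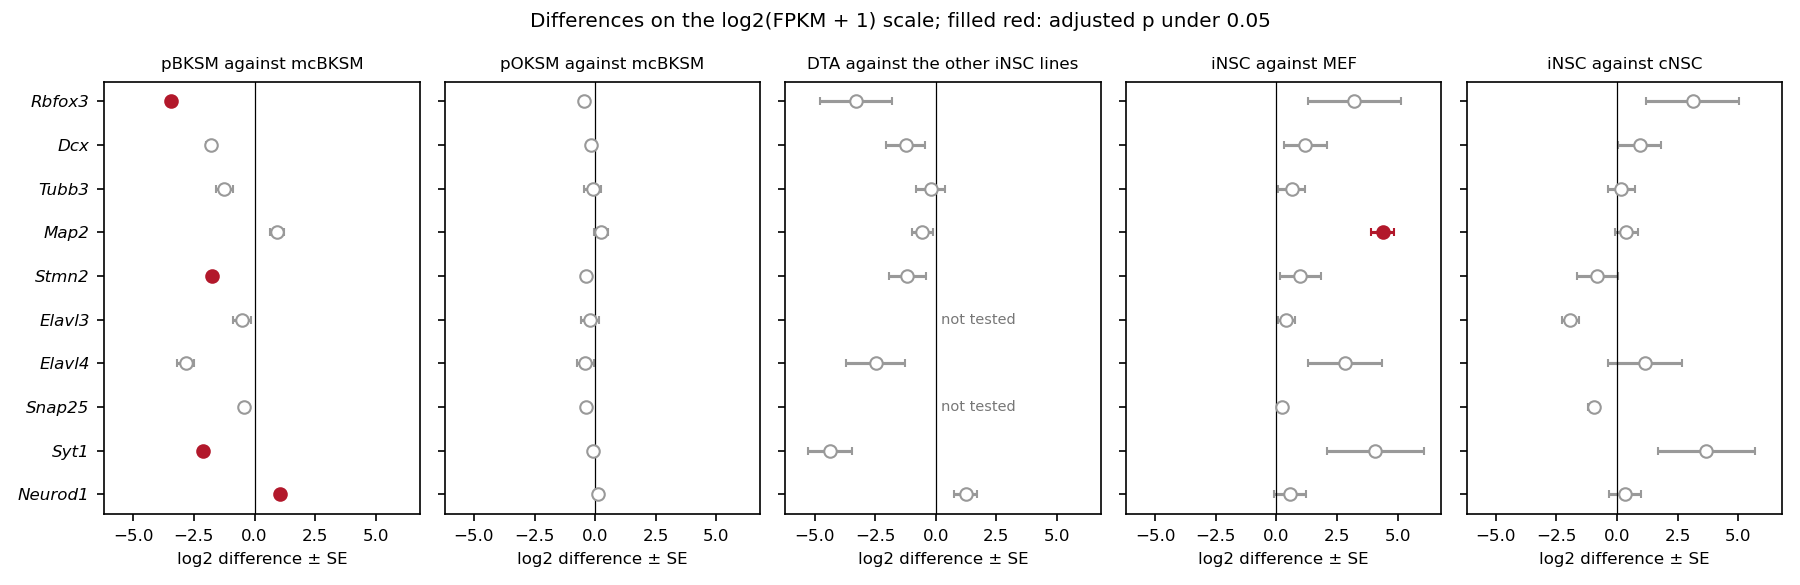
Fitted difference of each of the 10 genes on the log2(FPKM + 1) scale (horizontal axis), 1 panel per comparison, with bars of 1 SE and filled points for genes called at an adjusted p under 0.05. In pBKSM against mcBKSM, Rbfox3, Stmn2 and Syt1 lie below 0 and Neurod1 above it as called genes; against MEF only Map2 is called.

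The wider lists in the same comparison are again counts of single genes, beside 2.08% lower and 3.74% higher among all genes, with no test of a list. Of 27 cytoskeletal genes 6 were lower in pBKSM, with Kif5c (-3.72), a neuronal kinesin gene, Dpysl3 (-3.29) and Crmp1 (-2.95), of the collapsin response family, and Ank3 (-2.87), the axon initial segment ankyrin gene, as the 4 largest. Ina, an intermediate filament gene, was higher (1.38). Of the 4 lower genes named, Dpysl3 (151 FPKM) and Ank3 (12.3 FPKM) had their highest level of the 7 libraries in MEF. Crmp1 was listed at 0 in MEF, and Kif5c was at 3.02 FPKM there. Of 19 synaptic genes 2 were higher, Syp (1.46) and Syn1 (1.39), both of the synaptic vesicle, and none was lower. Syp was at 6.11 FPKM in pBKSM and at 1.62 and 1.53 in the clones, the opposite direction to Syt1. Of the 14 tested transcription factors 1 was lower, Ebf2 (-2.14), and none of the 13 RNA-binding genes or of the 16 of the REST group was called. Among 27 tested paralogues of the members, Syt13 was lower (-3.79) and Syt9 higher (2.55). Syt13 was at 1.99 FPKM in pBKSM, 39.5 and 41.3 in the clones, 32.1 in pOKSM, 1.82 in cNSC, 0.0815 in DTA and 0.0341 in MEF. Syt9 was at 4.86 FPKM in pBKSM, was listed at 0 in both clones and was under 1 FPKM in the other libraries. It was tested only because of its level in pBKSM, which fixes its direction, so no result is read from it. Without limma's trend none of these list genes was called, and with no filter 1 cytoskeletal gene was lower.

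Some glial markers also differed in that comparison. Of 10 astrocyte markers 4 were higher in pBKSM and none lower, and they summed to 867 FPKM in pBKSM against 269 and 250.2 in clones 1 and 3. Oligodendrocyte lineage markers summed to 1523 FPKM against 211 and 170, with 1 of 6 tested genes higher and 1 lower. In pBKSM that sum was mostly Olig1 (1038 FPKM) and Olig2 (423 FPKM). Pdgfra (1.06 FPKM in pBKSM against 8.07 and 8.12 in clones 1 and 3) and Cspg4 (0.0764 against 0.535 and 0.459) went the other way. Mog, the marker of mature oligodendrocytes, was at 0 in all 7 libraries. Of 9 neural stem cell markers 2 were lower and none higher. Peripheral neuron markers summed to 0.0475 FPKM in pBKSM and to 3.14 and 5.16 in the clones, with 1 of 2 tested genes lower, and Th and Dbh were at 0 in all libraries. None of 10 cell cycle markers was called. The part of these markers in the result was not tested.

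None of the 10 genes passed between pOKSM and the mcBKSM clones, where 0% of all genes were called by limma and 1119 genes (8.58%) had an unadjusted p under 0.05. Snap25 was the 1 member among them (-0.39 ± 0.04, adjusted p = 0.327). The Rbfox3 difference was -0.46 ± 0.16 (adjusted p = 0.647), Syt1 -0.10 ± 0.15 (adjusted p = 0.887) and Elavl4 -0.40 ± 0.35 (adjusted p = 0.814; SE, n = 1 against 2). For Rbfox3, Stmn2, Snap25 and Neurod1, pOKSM lay farther from the clones' mean than the clones lay from each other. Neurod1 was at or under the floor in pOKSM and both clones. For pBKSM every member but Elavl3 lay beyond the clones' gap. The share of all genes beyond that gap was not computed, so no result is read from how many members were. No gene of the 6 neuronal lists was called in this comparison. With 1 residual degree of freedom, a p that missed the threshold does not show that the lines were alike.

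Set directly against pBKSM, with 1 library each and no test, pOKSM held more Rbfox3 (3.00 on the log2(FPKM + 1) scale), Elavl4 (2.43), Syt1 (2.01) and Tubb3 (1.14), genes that were above 1 FPKM in both libraries. Among all genes that reached 1 FPKM in either, 6.44% were 2-fold or more higher and 6.32% lower. Dcx (1.65) and Stmn2 (1.38) reached 1 FPKM in pOKSM alone, which for Stmn2, listed at 0 in pBKSM, fixes a 2-fold difference, and Elavl3 and Snap25 reached it in neither. Map2 (-0.71) and Neurod1 (-0.94) were the members with more RNA in pBKSM, by less than 2-fold on this scale; with a pseudocount of 0.1 Neurod1 passed 2-fold.

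The DTA line had the least Rbfox3, Elavl4 and Syt1 of the 5 iNSC libraries. None of 8 tested members passed against the other 4 (Elavl3 and Snap25 did not reach 1 FPKM), where 0.355% of 12378 genes were called, 0.202% higher and 0.153% lower. Syt1 differed by -4.36 ± 0.92 (adjusted p = 0.112 from limma), Rbfox3 by -3.28 ± 1.47 (adjusted p = 0.292) and Neurod1 by 1.23 ± 0.49 (adjusted p = 0.255; SE, n = 1 against 4). Without pBKSM 6 members passed, 5 lower and 1 higher, with Syt1 at -4.88 (adjusted p = 0.00384) and Rbfox3 at -4.11 (adjusted p = 0.00732), but 32.3% of all genes were then called. No gene of the 6 neuronal lists was called against the other 4; without pBKSM 9 cytoskeletal genes were lower and 5 higher, and 7 synaptic genes were higher and none lower. The astrocyte markers summed to 1100 FPKM in DTA and to between 250.2 and 867 FPKM in the other iNSC libraries, with 1 of 10 higher, and their part in these values was not tested.

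Against cNSC, with 1 library each and no test, DTA held more Neurod1 (1.31 on the log2(FPKM + 1) scale), which reached 1 FPKM in DTA alone, and less Stmn2 (-1.76) and Elavl3 (-1.62), which reached it in cNSC alone. Map2 and Tubb3, above 1 FPKM in both, differed by -0.07 and 0.01. Among all genes that reached 1 FPKM in either 5.44% were higher and 6.64% lower. Against pBKSM DTA held less Map2 (-1.20) and less Syt1 (-2.80), the latter above 1 FPKM in pBKSM alone, where 4.75% of genes were lower and 7.34% higher. Between the clones no member of 7 was 2-fold apart.

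**Figure D4:**
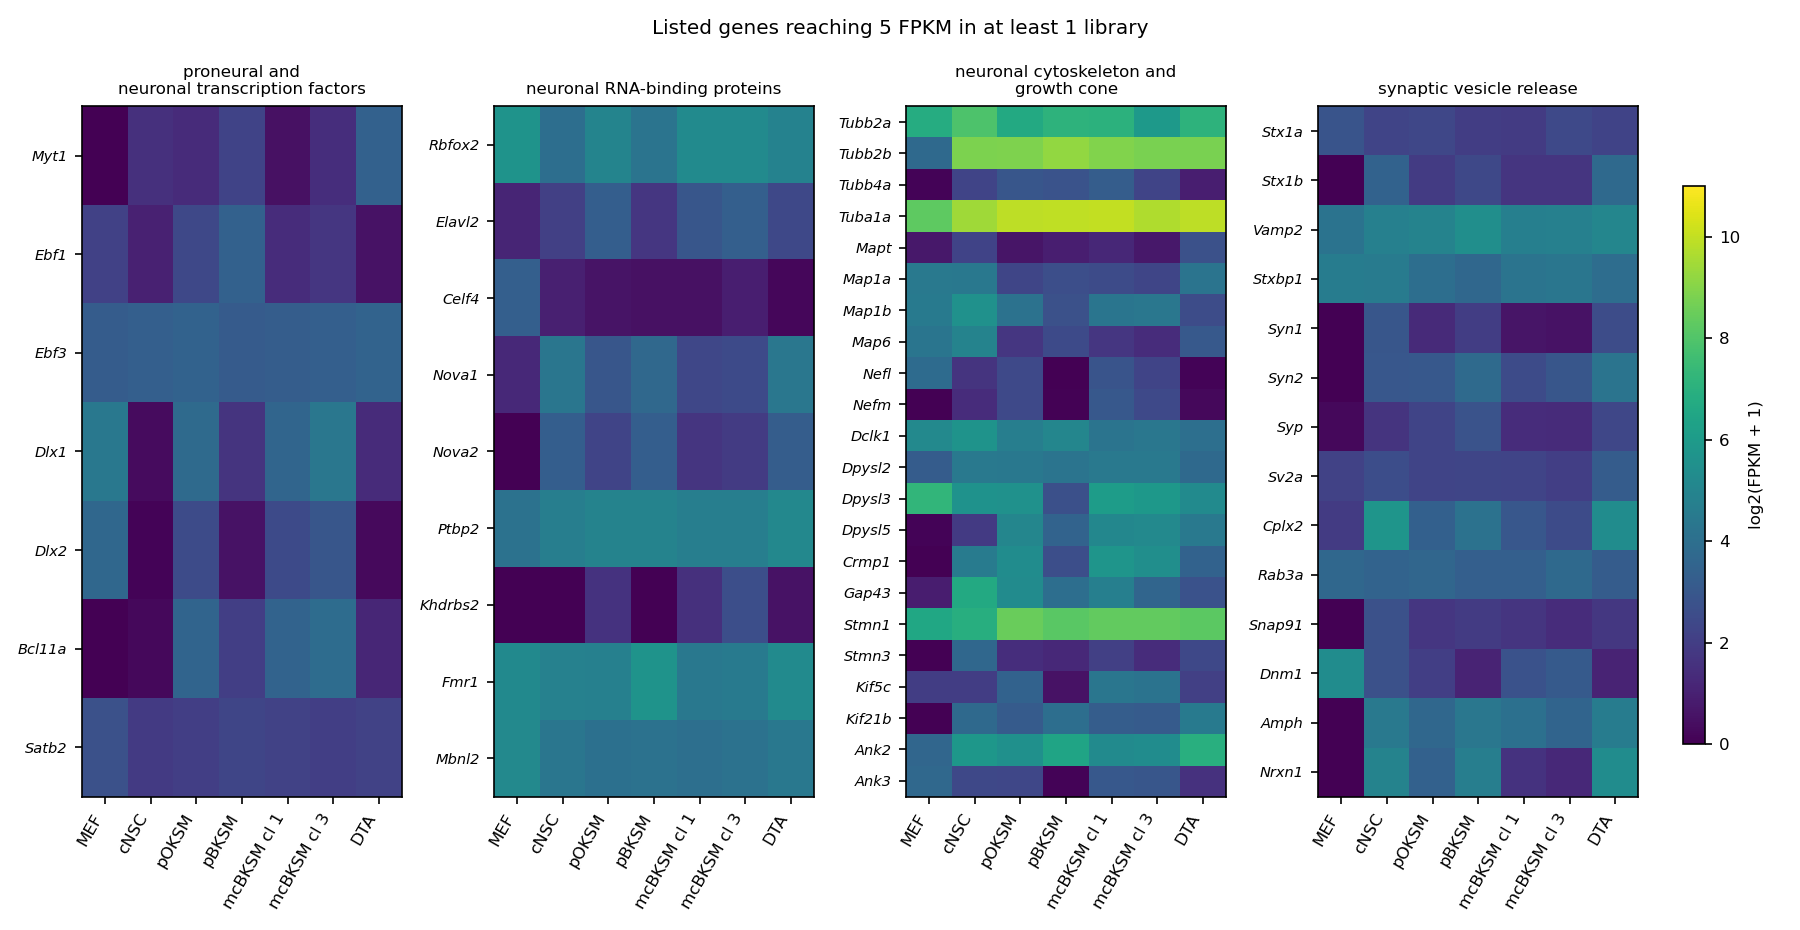
Levels in the 7 libraries (columns) of genes of 4 neuronal lists that reached 5 FPKM in at least 1 library (rows), coloured by log2(FPKM + 1). Syn1 and Syn2 are listed at 0 in MEF, and Kif5c, Dpysl3, Crmp1 and Ank3 are lower in pBKSM than in both mcBKSM clones.

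4 genes of transmitter synthesis or vesicle filling were picked from the synaptic list after their values were seen. Slc17a6, a vesicular glutamate transporter gene, was listed at 0 in all 7 libraries, Slc17a7 reached no more than 0.218 FPKM, and Slc32a1, the transporter gene for inhibitory transmitters, no more than 0.241 FPKM. Gad1, which makes GABA, was highest in DTA at 3.20 FPKM.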

How the data were processed

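The 10 genes and the gene lists were chosen with earlier results of these data known. RNA sequencing of 7 libraries gave 1 table of FPKM values, deposited by the authors. The submitters' processing notes name build mm10, R 3.3.2, Cuffnorm, Cufflinks 2.2.1 and STAR 2.5.2b, with no role for each; annotation and strand use: not given in the sources used here. Deposited FPKM is relative to the library, so these values cannot show how much RNA a cell held in all, and counts were not used here.

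From these values log2(FPKM + 1) was computed, a scale that understates changes of low genes. limma-trend (limma 3.58.1, R 4.3.3) tested each gene that reached 1 FPKM in any library of the fit, and a gene was called at a Benjamini-Hochberg adjusted p under 0.05 over all genes of the fit. The iNSC comparisons with MEF and cNSC used all 7 libraries in 3 classes (4 residual degrees of freedom), pBKSM and pOKSM against mcBKSM used all 7 in 6 label groups (1), and DTA against the other iNSC libraries used 5 libraries (3). A lone library is assumed to vary like the replicated side, so p-values measure spread between lines or clones, which may not repeat within a line. Pairs of single libraries were compared at 2-fold with no test. Depth was estimated from genes with 1 annotated transcript and at least 2000 bases, less 150 bases, from values under 0.35 FPKM; 78.9% to 87.0% of those used lay within 0.1 of a whole fragment. Between 268 and 331 values were used per library.

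Named genes were the 10 members; of each list up to 4 called genes of largest difference, or the 2 largest, as values, where no gene passed; the 3 genes most like each member that reached 5 FPKM, skipping Gm, Mir, Rik, snoRNA and ribosomal protein names; and marker genes by range and count. Gene positions are from GENCODE M21 (mm10) and promoter windows from RefSeq (GRCm38.p6). The tests were tested on simulated data first. Results on items withheld for evaluation are not reported here.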

Additional observations from a re-analysis of the deposited data

How the results depend on the processing

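The alternatives were a pseudocount of 0.1, no filter, a filter of 5 FPKM, quantile normalization, limma without trend, only the 3 libraries compared, and leaving out each library. Of the members' single differences, 379 were counted as unchanged, 12 lost a call and 12 gained one. The unchanged ones include fits with no residual degree of freedom and so no test, where an uncalled difference that changed sign was still counted. In pOKSM against mcBKSM, for example, Map2 went from 0.23 to -0.01 without clone 1. Without clone 3, Tubb3 went from -0.11 to 0.17 and Elavl3 from -0.22 to 0.10. Among fits with a test, the 1 that reversed was Tubb3 in DTA against the other iNSC libraries. It ranged from -0.51 without pBKSM to 0.0024 without mcBKSM clone 3 and was called in neither. The cause was not tested. In pBKSM against mcBKSM the 4 members called became 0 with no filter and 0 without trend, 2 with quantile normalization, 3 with a pseudocount of 0.1, 3 with the filter of 5 FPKM (13.5% of all genes called, against 5.82%) and 6 with only the 3 libraries compared (21.1% of all genes); with no filter 17740 genes were tested in place of 13042. Over the fits that left out 1 library, the members called ranged from 1 to 2 against MEF (2 without DTA), from 0 to 1 against cNSC (1 without DTA), and from 0 to 6 for DTA against the other iNSC libraries (6 without pBKSM). The alternatives for the list counts and for the pairs of single libraries were chosen after seeing the data. Of the other named genes' differences, 241 were counted as unchanged, fits without a test included, and 56 lost their call. Among all genes, the calls in DTA against the other iNSC libraries ranged from 0 without mcBKSM clone 1 to 3951 without pBKSM, and those against cNSC from 50 to 883 when 1 library was left out. No paired analysis was possible because every label group other than mcBKSM has 1 library. Single libraries of pooled RNA and an estimated depth limit what can be said of members under about 0.130 FPKM.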
